A study of Mus musculus with 20 samples.

Results

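The comparison of oral CEC with oral Nissle in mice given DNBS was described across every assay of a mouse inflammation panel that had at least 3 values in each of these groups. It takes 10 of the 20 samples of the study, 5 from each group, and 582 of the 648 assays, which cover 524 genes. Total RNA of the ileal mucosa was measured by real-time PCR on TaqMan OpenArray plates. The CEC samples came from mice with intrarectal DNBS and oral CEC, and the Nissle samples from mice with intrarectal DNBS and oral Nissle, so both groups share the DNBS. The other 10 samples were used for the spread and as side values: 5 from mice with intrarectal DNBS and oral PBS (called DNBS here) and 5 from healthy controls with PBS by both routes. The labels do not spell out CEC, and dose, duration, mouse strain and age are not given in the sources used here. The design text says that RNA of mice was pooled before the measurement, so that it is not clear whether a sample is 1 mouse, and the spread between samples may be partly technical. Samples are named by the number in their title: CEC 1, 3, 5, 7 and 8, and Nissle 1 to 5, and values below are listed in that order.

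DNBS is a hapten that causes colitis with ulcers when it is given into the rectum of mice, and Nissle is the name of a probiotic strain of Escherichia coli. In an inflamed gut, epithelial cells and resident macrophages release cytokines and chemokines. Neutrophils come first along gradients of Cxcl1 and Cxcl2, and monocytes and T cells follow along CC chemokines and the interferon-induced Cxcl9, Cxcl10 and Cxcl11. Interleukin-17 and interleukin-22 made by lymphocytes act on the epithelium, which answers with antimicrobial proteins such as Reg3g.

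The deposited values are threshold cycles (Ct), the PCR cycle at which the signal of an assay crosses a fixed level. The relative level of an assay is the negative of its Ct minus the mean Ct of 544 assays in the same sample, so that 1 unit is 1 cycle, taken as a 2-fold change in template (log2). Levels can be compared between samples for 1 assay, and not between assays. The mean Ct was 23.5 ± 0.469 cycles in CEC and 23.1 ± 0.569 in Nissle (SD, n = 5 each), a difference of 0.397 cycles (exact permutation test over 252 splits, two-sided, p = 0.262, where the smallest possible p is 0.00794), and without Nissle 4 it was 0.630 (exact permutation p = 0.0397). The number of assays with a value was 579 to 593 in the CEC samples and 579 to 594 in the Nissle samples. Of the ileal epithelial markers set for a check of the tissue, Apoa1, Ccl25 and Reg3g gave values in all 10 samples, with a Ct of 10.8 to 13.9 for Reg3g. Apoa4 gave none in any sample, and Vil1, Epcam, Cdh1, Fabp2, Fabp6 and Slc10a2 are not on the panel. The labels of Nissle 3, 4 and 5 name the healthy controls as experimental group. Their titles (starting with N), description (Nissle) and both treatment labels (intrarectal DNBS, oral Nissle) are those of the Nissle group.

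Nissle 1 stood apart from the other samples. Its median Spearman correlation over assays with the other 9 CEC and Nissle samples was 0.808, against 0.913 to 0.961 for those 9, of which CEC 1 (0.913) and CEC 3 (0.919) were lowest. It was the highest or lowest sample of its group in 66.6% of 569 assays, against 24.8% to 47.5% for the others. When Nissle 1 was left out, 140 of 574 differences turned sign, against 60 to 87 for each of the other 9 samples. Values without it are therefore given beside the list medians and most of the differences it moved.

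No assay differed between CEC and Nissle beyond the spread between samples. Of 582 assays tested, 0 passed (0% called; limma with Benjamini-Hochberg adjustment at 0.05), and the adjusted p was 0.998 for every assay. At an unadjusted p under 0.05 there were 9 assays (1.55%), where 29.1 would be expected with no difference at all and independent assays. That number was 4 without Nissle 3, 17 without CEC 3, 19 without Nissle 2 and 22 without Nissle 5, and 0 assays passed the adjusted threshold in each of these fits. Differences ran from −1.89 to 2.19 on the log2 scale, with a median size of 0.24 against a median standard error of 0.42. In bulk tissue, fewer cells of a type and less RNA per cell cannot be told apart, and this holds for every level below.

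The data bound large differences better than small ones. The 95% confidence interval of the difference lay within 2-fold in both directions for 221 assays (38.0%) and within 4-fold for 500 (85.9%), and it reached beyond 4-fold for 82. For most assays the interval therefore did not exclude a 2-fold change, and the lack of a call does not show that both treatments gave the same levels. Differences above 2-fold went without a call too, among them log2 differences of 2.19 for Orm1 and −1.63 for Ccl4. The direction of small differences depended on the scaling. With the mean of all assays as base, 348 assays were higher in CEC and 234 lower, with a median difference of 0.06. With the reference genes as base the split was 202 to 380, and the median was −0.11. With raw Ct it was 77 to 505, with a median of −0.33. With the mean of all assays as base and Nissle 1 left out, it was 302 to 272, with a median of 0.03. Gene groups are therefore also described by how many members lay above or below the median of all assays.

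**Figure D1:**
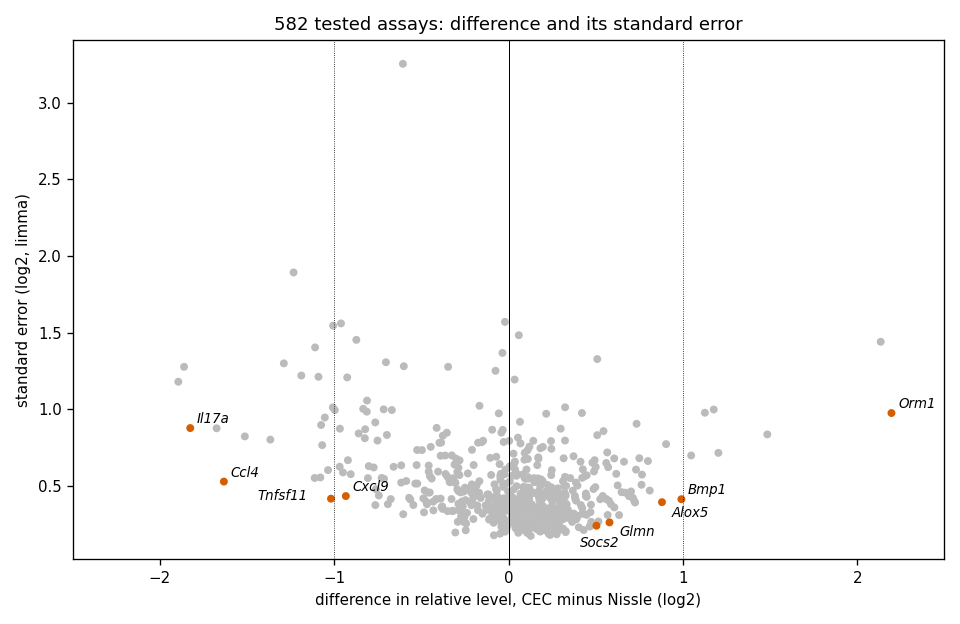
Difference between CEC and Nissle (x axis, log2, positive where CEC is higher) and its standard error from limma (y axis, log2) for 582 assays; dotted lines mark a 2-fold difference, and the 9 assays with the smallest p are orange and named. The 28 assays outside the dotted lines include many with large standard errors, and 0 assays passed the adjusted threshold.

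Of the 28 assays with a difference over 2-fold, 21 were lower and 7 higher in CEC. In 18 of the 21 lower ones, Nissle 1 was the highest Nissle sample. Over 569 assays it was the highest of its group in 139 and the lowest in 240. Assays picked for a higher Nissle mean favour those where it is highest. Of 19 of these 21 that could also be fitted without Nissle 1, 17 were still lower in CEC and 4 still by over 2-fold. Over all 574 assays fitted without it, 26 differed by over 2-fold, 10 lower and 16 higher. The median SD of an assay was 0.58 in CEC and 0.61 in Nissle, or 0.46 in Nissle without Nissle 1.

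Chemokines had the lowest median difference of the 22 lists with all samples. Without Nissle 1 the TNF superfamily was lower (−0.20 against −0.16). Without Nissle 3, 4 and 5 the neutrophil and pro-inflammatory cytokine lists were lower (−2.84 and −1.16 against −0.74). Of 28 chemokine genes, 0 passed, 19 were lower in CEC and 9 higher, and 20 lay below the median of all assays. The median difference was −0.37, or −0.16 without Nissle 1, beside 0.06 and 0.03 for all assays. The members with the smallest p were Ccl4, which attracts monocytes, T cells and NK cells, and the Cxcr3 ligands Cxcl9, Cxcl10 and Cxcl11, which interferon-gamma induces.

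Ccl4 had the smallest p of all assays. Its relative levels were −4.02, −1.91, −1.94, −2.51 and −2.34 in CEC and 1.21, −1.72, −1.92, −0.91 and −1.24 in Nissle. The groups overlapped, since CEC 3 lay above Nissle 3. The mean was lower in CEC by 3.10-fold, a log2 difference of −1.63 (standard error 0.53, 95% interval −2.73 to −0.54; limma unadjusted p = 0.00553, adjusted p = 0.998). Without Nissle 1 the difference was −1.10, and without CEC 1 it was −1.26. The means of the DNBS and healthy samples, −2.01 ± 0.43 and −1.81 ± 0.69 (SD, n = 5 each), lay between those of CEC (−2.55 ± 0.86) and Nissle (−0.91 ± 1.25).

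The Cxcr3 ligands, which recruit activated T cells and NK cells, were all lower in CEC without passing the test. Cxcl9 was at 0.03 in CEC 1, at 0.78 in CEC 7 and at 1.52 to 2.45 in the other CEC samples, and at 2.65, 1.45, 2.62, 2.97 and 1.75 in Nissle. CEC 1 and CEC 7 lay below every Nissle sample, and the other 3 CEC samples lay within the Nissle range. The difference was −0.93 (standard error 0.43; limma unadjusted p = 0.0428), and −0.60 without CEC 1. For Cxcl10 the values were −0.87, 1.11, 1.01, −0.40 and 0.53 in CEC against 3.85, 0.46, 1.44, 0.80 and 0.23 in Nissle. Here the group means were set apart mainly by Nissle 1, since the difference of −1.08 (standard error 0.55) shrank to −0.45 without it. Cxcl11 was at −7.20, −3.64, −3.74, −5.23 and −4.09 in CEC and at −2.07, −3.44, −2.60, −3.82 and −3.61 in Nissle. CEC 1 lay lowest in this assay too, and the difference of −1.67 (standard error 0.87) was −1.41 without Nissle 1 and −1.07 without CEC 1. The 2 assays of their inducer Ifng differed by 0.00 and −0.46 (standard errors 0.79 and 0.59), and by 0.43 and −0.14 without Nissle 1.

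Chemokines that recruit neutrophils and monocytes varied widely within the groups. Cxcl2, a Cxcr2 ligand, was at −0.85, −1.10, −4.98, −4.07 and −4.97 in CEC and at 2.77, −2.74, −2.30, −6.36 and −5.62 in Nissle. CEC 1 and CEC 3 stood about 3 cycles or more above the other CEC samples, and Nissle 1 stood above all. The difference of −0.35 (standard error 1.28) turned to 1.06 without Nissle 1, and it was −3.21 without Nissle 3, 4 and 5. Cxcl1, the related ligand, had 2 assays with differences of −1.07 and −0.40, which were −0.25 and 0.49 without that sample. Ccl2 and Ccl7, which recruit monocytes through Ccr2, were lower in CEC with all samples. Ccl2 differed by −0.82, and by 0.05 without Nissle 1. The 2 assays of Ccl7 differed by −1.07 and −0.82, and by −0.21 and 0.15 without Nissle 1. Ccl25, which draws Ccr9-bearing lymphocytes to the small intestine, and Ccl28, made by mucosal epithelia, had positive differences that did not pass. That of Ccl25 was 0.50 (−0.01 without Nissle 1), and that of Ccl28 was 0.29 (0.26 without Nissle 1).

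**Figure D2:**
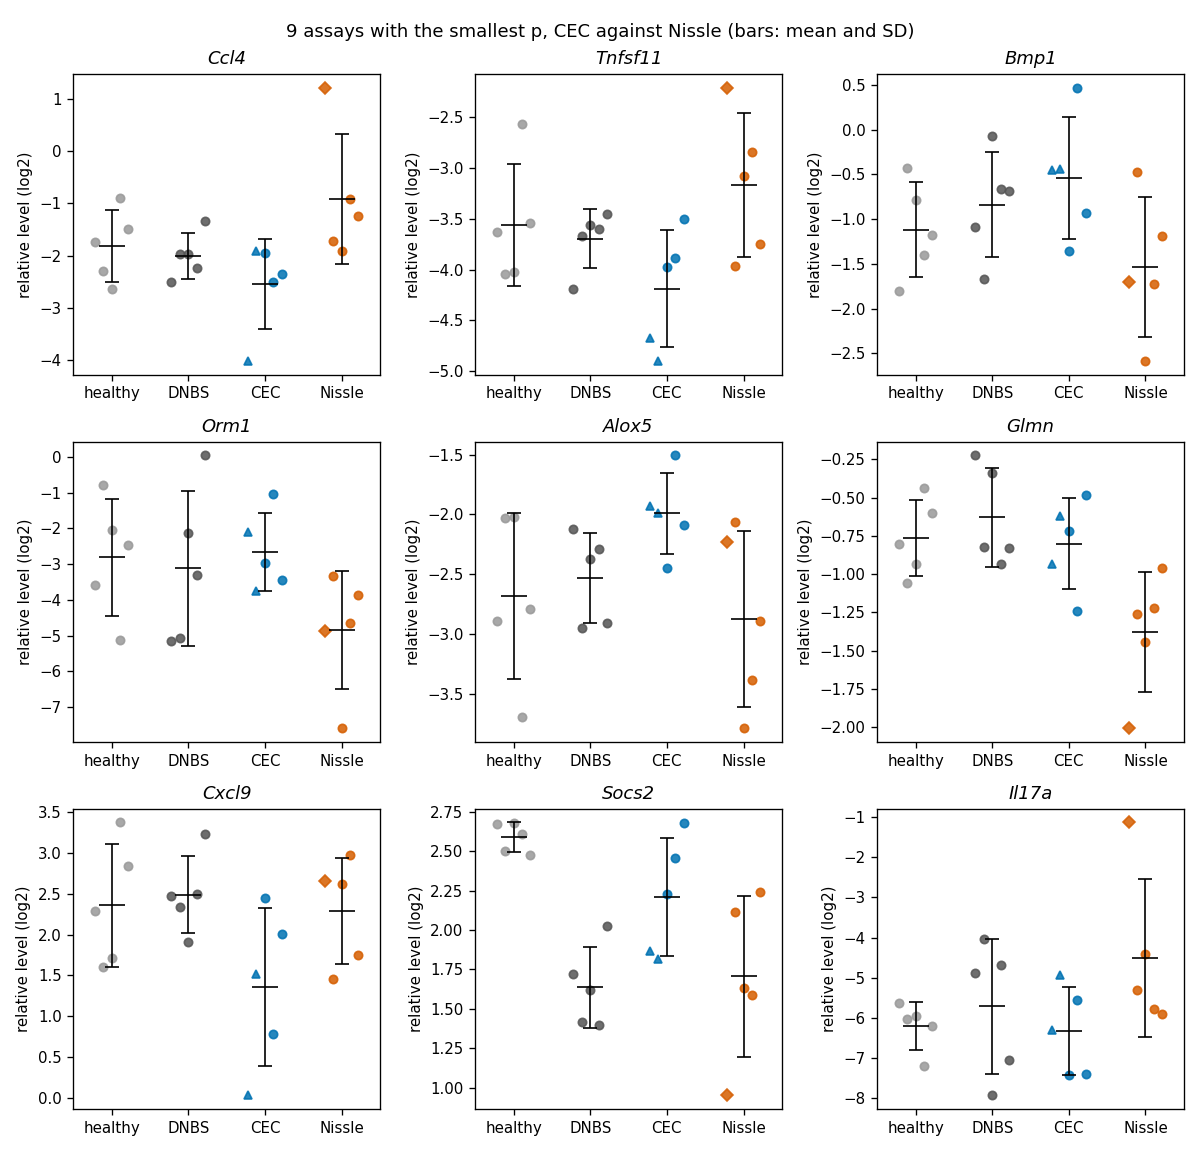
Relative level (y axis, log2) of the 9 assays with the smallest p in healthy, DNBS, CEC and Nissle samples (5 each); diamonds mark Nissle 1, triangles CEC 1 and CEC 3, circles all other samples, and bars give mean and SD. In each of the 9 assays the CEC and Nissle values overlap, and Nissle 1 is the highest Nissle sample for Ccl4 (1.21), Tnfsf11 (−2.21) and Il17a (−1.13).

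Among 21 pro-inflammatory cytokine genes, 0 passed, 14 were lower in CEC and 7 higher, and 15 lay below the median of all assays. The median difference was −0.15 with all samples and −1.16 without Nissle 3, 4 and 5. Without Nissle 1 it was 0.14 over 19 genes, of which 8 were lower. The Il6 assay counted in this list and Il1f9, lower in CEC with all samples (−0.96 and −0.92), could not be fitted then. Further Il6 assays, given below, could be fitted without Nissle 1 and then stood at 0.91 and 0.13. The direction of the list median thus changed without that sample, over a slightly different set of genes. The mean level of the list was −0.46 in Nissle 1, against −3.54 to −2.82 in the other Nissle samples and −3.41 to −2.31 in CEC. Members without a value in a sample were left out of its mean, so these means do not all cover the same genes. Nissle 1 had the highest mean cytokine level of the 10 samples.

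Il17a, the T helper 17 cytokine, was at −6.32, −4.93, −7.43, −5.56 and −7.40 in CEC and at −1.13, −5.31, −4.41, −5.77 and −5.90 in Nissle. CEC 3 and CEC 7 lay within the range of the Nissle samples. The mean was lower in CEC by 3.54-fold (log2 difference −1.82, standard error 0.88), and the log2 difference was −0.98 without Nissle 1 and −3.11 without Nissle 3, 4 and 5. Its relative Il17f differed by 0.22 (standard error 0.97), by 1.10 without Nissle 1 and by −0.05 without CEC 3. Il22, the other cytokine of this axis that acts on epithelium, differed by 0.51 (standard error 1.33) on an assay that the file assigns to Il22 and Iltifb together, by 1.74 without Nissle 1 and by −0.02 without CEC 3. Lif, a cytokine of the interleukin-6 family, had tighter groups: −3.78, −4.57, −3.58, −3.55 and −3.02 in CEC and −2.54, −3.63, −2.60, −2.73 and −3.18 in Nissle. The difference was −0.76 (standard error 0.37) and stayed at −0.66 without Nissle 1.

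The usual readouts of gut inflammation had large standard errors, and for most the size or direction depended on which Nissle samples were kept. The fit without Nissle 3, 4 and 5, whose labels contradict each other, leaves Nissle 1 and Nissle 2 and so gives Nissle 1 more weight. Il1b, the inflammasome-processed cytokine, was measured by 2 assays. In the first it was at −1.34, 0.91, −1.70, −2.07 and −1.20 in CEC and at 4.32, −0.04, −1.44, −2.33 and −1.84 in Nissle. The difference of −0.81 (standard error 1.06) became 0.33 without Nissle 1, whose level was over 4 cycles above every other Nissle sample. The second gave −1.37 (standard error 0.80), and −0.33 without that sample. Without Nissle 3, 4 and 5 the 2 assays gave −3.22 and −3.26. Il6 had 3 assays with differences of −0.61, −1.19 and −0.96 (standard errors 3.25, 1.22 and 1.56), of which the first 2 were 0.91 and 0.13 without Nissle 1. All 3 were lower without Nissle 3, 4 and 5, at −3.68, −3.49 and −3.18. In the second assay Il6 was at −2.84, −1.75, −7.94, −5.51 and −4.76 in CEC and at 1.89, −4.05, −6.34, −2.44 and −5.94 in Nissle. In the first assay 1 healthy sample held a value of 5.74 cycles, and with that value removed the standard error was 1.35 in place of 3.25.

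Both Il12b assays, for a subunit shared by interleukins 12 and 23, differed by −0.17 and −0.35 (standard errors 0.78 and 0.85), by 0.25 and 0.06 without Nissle 1, and by −1.27 and −1.21 without Nissle 3, 4 and 5. Nos2, the inducible nitric oxide synthase, was at 3.12, 4.02, 4.08, 2.79 and 4.31 in CEC and at 4.23, 3.55, 2.75, 3.26 and 3.92 in Nissle, a difference of 0.12 (standard error 0.47). Its groups overlapped over nearly their whole range. Ptgs2, the inducible cyclooxygenase, differed by −0.29 (standard error 0.59) with Nissle 1 and by 0.28 without it. The assays for Tnf and Il10 gave no value in any of the 20 samples.

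The neutrophil genes showed the strongest split within groups. Of 7 neutrophil markers tested, 0 passed, 6 were lower in CEC and 1 higher, and 7 of 7 lay below the median of all assays. Their median difference was −0.25 with all samples, 0.33 without Nissle 1 and −2.84 without Nissle 3, 4 and 5. The mean level of the list was −0.39 in CEC 1 and 0.12 in CEC 3, against −3.03 to −2.31 in the other 3 CEC samples. In Nissle 1 it was 2.29, against −2.47 to −1.42 in the other 4. The DNBS samples lay at −2.44 to 0.36 and the healthy samples at −3.17 to −1.73. So 2 CEC samples and 1 Nissle sample lay in or above the upper DNBS range, and the remaining 7 lay close to or within the healthy range. The DNBS and healthy ranges overlap. Among these 7, CEC 8 (−2.31), Nissle 2 (−1.42), Nissle 3 (−1.98) and Nissle 4 (−1.78) also lay within the DNBS range. Nissle 2 lay above every healthy sample.

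S100a8 and S100a9 encode the subunits of calprotectin, the protein measured in stool as a sign of neutrophils in the gut. S100a9 was at 2.28, 2.18, −3.05, −3.02 and −2.51 in CEC and at 5.48, −0.73, −0.68, −1.03 and −2.81 in Nissle. CEC 1 and CEC 3 lay above 4 of the 5 Nissle samples, while the other 3 CEC samples lay below at least 4 of them. The difference was −0.87 (standard error 1.45, 95% interval −3.90 to 2.15), 0.49 without Nissle 1 and −3.20 without Nissle 3, 4 and 5. The S100a8 assay with the lower Ct was at 3.71, 3.45, −1.73, −2.02 and −2.50 in CEC and at 6.48, 0.32, 0.10, 0.87 and −1.32 in Nissle, with the same samples high. Its difference was −1.11 (standard error 1.40), or 0.19 without Nissle 1, and that of the other S100a8 assay was −0.60, or 0.61 without it. Means in DNBS and healthy samples were 0.83 ± 2.83 and −3.13 ± 0.92 for S100a9 (SD, n = 5 each).

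Camp, the antimicrobial cathelicidin stored in neutrophil granules, was at −3.96, −3.89, −7.75, −6.51 and −5.78 in CEC and at −1.06, −4.41, −4.92, −4.71 and −5.23 in Nissle. It followed the same pattern of samples, with a difference of −1.51 (standard error 0.82) and −0.76 without Nissle 1. Chil3, a chitinase-like protein of neutrophils and activated macrophages, spread widest, from −6.21 to 3.61 in CEC and from −2.96 to 4.43 in Nissle. Its difference was −1.23 (standard error 1.89), and −0.03 without Nissle 1. Ncf1, a subunit of the phagocyte oxidase, was narrower, at −0.16, 0.53, 0.49, −0.31 and 0.34 in CEC against 1.15, 0.50, −0.02, 0.72 and −0.19 in Nissle, a difference of −0.25 (standard error 0.29).

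**Figure D3:**
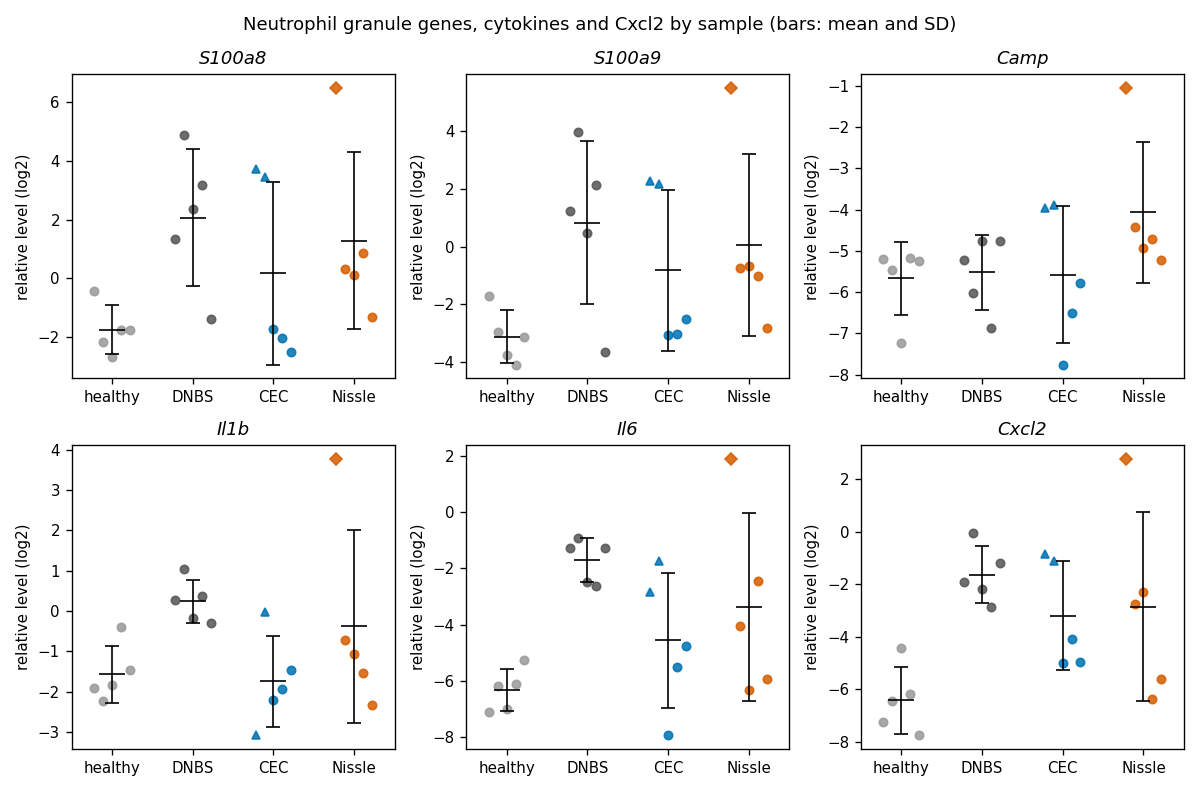
Relative level (y axis, log2) of S100a8, S100a9, Camp, Il1b, Il6 and Cxcl2 (1 assay each) in healthy, DNBS, CEC and Nissle samples (5 each); diamonds mark Nissle 1, triangles CEC 1 and CEC 3, circles all other samples, and bars give mean and SD. In each panel Nissle 1 is the highest of the 10 CEC and Nissle samples, and for S100a9 CEC 1 (2.28) and CEC 3 (2.18) stand apart from the other CEC samples (−3.05 to −2.51).

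The other leukocyte lists varied partly with these samples. Of 12 macrophage, monocyte and dendritic cell markers, 0 passed, 8 were lower in CEC and 4 higher, and 9 lay below the median of all assays. Their median difference of −0.17 was 0.05 without Nissle 1. Their mean level was −0.35 and −0.21 in CEC 1 and CEC 3 and 0.07 in Nissle 1, against −1.27 to −0.54 in the other 7 samples. Itgam, the integrin alpha chain of myeloid cells, was higher in CEC by 0.69 (standard error 0.43), and Cd80, a costimulatory molecule of antigen-presenting cells, was lower by 0.77 (standard error 0.62), or by 0.17 without Nissle 1. Among 6 adhesion molecules and integrins, 4 were lower and 2 higher in CEC, and 5 lay below the median of all assays. Their median difference was −0.01. Without Nissle 1 the median was 0.20 and 1 of 5 was lower. Selp, the P-selectin of activated endothelium and platelets, was at −1.71, −1.66, −4.39, −3.04 and −3.61 in CEC and at 0.31, −2.67, −2.50, −1.72 and −3.08 in Nissle, a difference of −0.95 (standard error 0.59), or −0.39 without Nissle 1.

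Of 9 T, B and NK cell markers, 0 passed, 5 were lower and 4 higher in CEC, and 7 lay below the median of all assays. Their median difference was −0.01 (−0.15 without Nissle 1). Icos, a costimulatory receptor of activated T cells, differed by −0.74 (standard error 0.44), Cd28, its relative on resting T cells, by 0.54 (standard error 0.42), and Foxp3, the factor of regulatory T cells, by −0.45 (standard error 0.56). Cd4 itself lay at −0.82 ± 0.32 in CEC and −0.78 ± 0.67 in Nissle (SD, n = 5 each). T cell genes therefore pointed both ways. Of 16 eosinophil, mast cell and type 2 genes, 8 were higher and 8 lower in CEC, and 10 lay below the median of all assays. Their median difference was −0.01, or 0.01 without Nissle 1. Ccl11, the eosinophil attractant eotaxin, was lower by 0.68 (standard error 0.41) and by 0.22 without Nissle 1.

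Il5ra, the receptor that gives eosinophils their response to interleukin-5, was 1 of 3 assays whose groups did not overlap. Such a separation was seen in 0.515% of the 582 assays, with the CEC samples above the Nissle samples in all 3 and below in 0. Il5ra had values in 3 samples of each group, −5.21, −4.40 and −5.15 in CEC 5, 7 and 8 against −6.21, −5.48 and −6.67 in Nissle 1 to 3, at Ct values of 28.3 to 29.9. The difference of 1.20 had a standard error of 0.71. The second was Selenos, a selenoprotein of the endoplasmic reticulum that the panel lists as H47: 3.89, 3.69, 4.23, 3.64 and 3.74 in CEC and 3.41, 3.29, 3.40, 3.34 and 3.60 in Nissle. Both groups were narrow, the difference was 0.43 (standard error 0.21; limma unadjusted p = 0.0536), and it was 0.43 without Nissle 1 too. The third was 1 of 4 assays for Hprt, a purine salvage enzyme used as a reference gene, with a difference of 0.47 (standard error 0.33), while the other 3 gave 0.11 to 0.13 and overlapped.

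In the TNF superfamily, 0 of 25 genes passed, 16 were lower in CEC and 9 higher, and 18 lay below the median of all assays. The median of −0.19 was −0.20 without Nissle 1. It was −0.09 without CEC 1 and also without CEC 3, and −0.03 without all 3 samples. Tnfsf11, the ligand RANKL that guides osteoclasts and the M cells of the gut, was at −4.67, −4.90, −3.98, −3.88 and −3.51 in CEC and at −2.21, −3.97, −3.08, −2.84 and −3.75 in Nissle. CEC 1, CEC 3 and CEC 5 lay below every Nissle sample. The difference was −1.02 (standard error 0.41; limma unadjusted p = 0.0232), and −0.78 without Nissle 1. Tnfrsf1b, the second TNF receptor, was at 1.82, 1.36, 1.42, 1.43 and 1.46 in CEC and at 2.90, 1.51, 2.17, 2.21 and 1.73 in Nissle. The CEC samples lay close together (SD 0.18), the Nissle samples less so (SD 0.53), and the difference was −0.60 (standard error 0.31), or −0.41 without Nissle 1. Tnfsf9 and its receptor Tnfrsf9, a costimulatory pair of T cells, were lower by 1.03 and 0.76 (standard errors 0.60 and 0.48), and by 0.62 and 0.66 without Nissle 1.

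The largest difference with CEC higher was that of an acute-phase gene. Orm1 encodes an acute-phase plasma glycoprotein made mainly by the liver. It was at −2.11, −3.76, −2.96, −1.03 and −3.43 in CEC and at −4.86, −3.32, −7.59, −4.63 and −3.86 in Nissle. CEC 3 and CEC 8 lay below Nissle 2, so the groups overlapped, and Nissle 3 lay nearly 3 cycles below the next Nissle sample. The mean was higher in CEC by 4.58-fold, a log2 difference of 2.19 (standard error 0.97, 95% interval 0.17 to 4.22; limma unadjusted p = 0.0353, adjusted p = 0.998). It was 2.19 without Nissle 1 too, and 1.51 without Nissle 3. The DNBS and healthy means were −3.12 ± 2.17 and −2.80 ± 1.63 (SD, n = 5 each), close to the CEC mean of −2.66 ± 1.10.

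Over 30 complement and acute-phase genes, 0 passed, 21 were higher and 9 lower in CEC, and 18 lay above the median of all assays. Their median of 0.08 stood beside 0.06 for all assays. Cfb, factor B of the alternative pathway, differed by 0.31 (standard error 0.22), and F2, prothrombin, by −0.90 (standard error 0.57). Clu, clusterin, a chaperone that inhibits complement, was at 2.82, 2.54, 2.32, 2.28 and 2.38 in CEC and at 0.77, 1.88, 2.56, 2.57 and 1.38 in Nissle. Nissle 3 and 4 matched the CEC samples while the other 3 lay lower, and the difference was 0.63 (standard error 0.31), or 0.37 without Nissle 1.

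No gene of the list of epithelial secreted, barrier and apolipoprotein genes passed. Of 10 genes, 7 were higher in CEC and 3 lower, and 7 lay above the median of all assays. The 3 lower ones were Spp1 (−1.01), Tgm2 (−0.25) and Apoe (−0.07). The median was 0.26, or 0.13 without Nissle 1. Cftr, the chloride channel of crypt cells, was at 2.36, 2.52, 3.25, 3.51 and 2.67 in CEC and at 1.91, 2.45, 2.49, 2.14 and 2.75 in Nissle, a difference of 0.52 (standard error 0.27). CEC 5 and CEC 7 lay above every Nissle sample and the other 3 within their range. Reg3a, an antimicrobial lectin, was at 2.12, 2.83, 2.85, 2.37 and 2.58 in CEC and at 2.99, 2.18, 0.08, 1.09 and 2.36 in Nissle, a difference of 0.81 (standard error 0.47), and its relative Reg3g differed by 0.22 (standard error 0.33). Apoa1, the apolipoprotein that enterocytes secrete, differed by 0.63 and 0.67 in its 2 assays (standard errors 0.50 and 0.45), and by 0.29 and 0.30 without Nissle 1, which had the lowest levels of the 10 samples in both. Krt8, a keratin of the epithelium, differed by 0.09 (standard error 0.45).

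Of 13 eicosanoid genes, 7 were higher in CEC and 6 lower, 0 passed, and 7 lay above the median of all assays. Their median of 0.12 was 0.36 without Nissle 1. Alox5, the 5-lipoxygenase that starts leukotriene synthesis, was measured by 6 assays. The one with the smallest p was at −1.93, −1.99, −2.44, −1.51 and −2.09 in CEC and at −2.23, −2.06, −3.79, −3.38 and −2.89 in Nissle. Its difference was 0.88 (standard error 0.39; limma unadjusted p = 0.0361). The other 5 assays of the same gene gave 0.61, 0.16, 0.10, −0.20 and −0.26, and their standard errors were 0.31 to 0.46. Anxa1, an annexin that restrains neutrophils, differed by 0.39 (standard error 0.30), and Pla2g2d, a secreted phospholipase, by 0.43 (standard error 0.32).

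The same check was possible for 46 genes with more than 1 tested assay. Of their 77 pairs of assays, 55 gave the same sign, with a median gap of 0.23 and a largest gap of 1.14, within Alox5. The correlation of the differences over the pairs was 0.54, as a description, since the pairs share samples and some share an assay. Bmp6, a ligand of the BMP family, gave 0.80 in 1 assay and −0.30 in the other. Sod1, the cytosolic superoxide dismutase, gave 0.47 (standard error 0.23) and 0.07 (standard error 0.27).

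**Figure D4:**
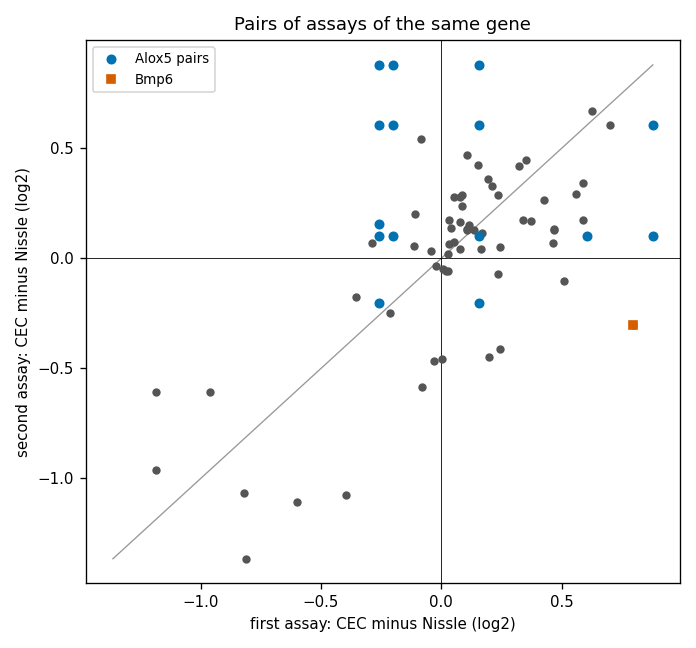
Difference between CEC and Nissle (log2) in the first (x axis) and second (y axis) assay of the same gene, for 77 pairs of assays of 46 genes; the line marks equality, and the pairs of Alox5 and Bmp6 are coloured. Of the pairs, 55 have the same sign, and the Alox5 pairs reach a gap of 1.14.

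Genes of growth factor signalling overlapped between the groups. Bmp1, a metalloprotease that processes procollagen and frees BMP ligands, was at −0.45, −0.44, −1.36, 0.47 and −0.94 in CEC and at −1.71, −0.47, −2.59, −1.72 and −1.18 in Nissle. The difference was 0.99 (standard error 0.41; limma unadjusted p = 0.0255), or 0.95 without Nissle 1, and Nissle 2 and Nissle 5 lay among the CEC values. Of 23 genes of the BMP, GDF and TGF-beta family, 15 were higher in CEC, 8 lower and 0 passed. Above the median of all assays lay 13 of them. Their median of 0.14 was 0.00 without Nissle 1. Tgfbr1, a TGF-beta receptor, differed by 0.33 and 0.21 in its 2 assays (standard errors 0.20 and 0.21).

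Socs2, a feedback inhibitor of growth hormone signalling, was at 1.86, 1.82, 2.23, 2.46 and 2.68 in CEC and at 0.95, 2.12, 1.63, 1.59 and 2.24 in Nissle. The difference was 0.50 (standard error 0.24; limma unadjusted p = 0.0470), or 0.31 without Nissle 1. The mean of CEC, 2.21 ± 0.37, lay between those of the DNBS samples (1.64 ± 0.26) and the healthy samples (2.59 ± 0.09; SD, n = 5 each), and that of Nissle was 1.71 ± 0.51. Erbb2, a receptor of the EGF receptor family, stood in a similar order, at 0.80 ± 0.38 in CEC, 0.23 ± 0.58 in Nissle, −0.13 ± 0.44 in DNBS and 0.94 ± 0.46 in healthy samples, and differed by 0.57 between CEC and Nissle (standard error 0.31). Glmn, glomulin, a regulator of cullin ubiquitin ligases, was at −0.93, −0.62, −0.72, −1.24 and −0.49 in CEC and at −2.01, −1.26, −1.45, −1.22 and −0.96 in Nissle, a difference of 0.58 (standard error 0.26; limma unadjusted p = 0.0373).

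Signalling kinases and pattern recognition receptors held 0 assays that passed. Of 11 MAP kinase and PI3 kinase genes, 9 were higher in CEC, 2 lower and 0 passed, and 8 lay above the median of all assays. Their median of 0.23 was 0.03 without Nissle 1. Map2k3, which activates p38, differed by 0.39 (standard error 0.31), and Rac1, a small GTPase, by 0.29 (standard error 0.26). Of 31 Toll-like receptor, NOD and NF-kB genes, 16 were higher and 15 lower, and 17 lay below the median of all assays. Their median difference was 0.05. Tnfaip3, which ends NF-kB signalling, differed by −0.43 (standard error 0.40), and Nod1, a sensor of bacterial peptidoglycan, by −0.24 (standard error 0.25). Of 23 interferon and STAT genes, 15 were higher and 8 lower, and 12 lay above the median of all assays. Their median difference was 0.10, or 0.05 without Nissle 1, where 11 were lower. Stat3, the factor downstream of interleukins 6 and 22, differed by 0.40 (standard error 0.23). Of 12 anti-inflammatory genes, 6 were higher and 6 lower, and 8 lay below the median of all assays. Their median difference was −0.05, or 0.06 without Nissle 1.

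Among 29 interleukin receptors, 16 were higher in CEC, 13 lower and 0 passed, with a median of 0.04. Against the median of all assays the split turned, with 11 above and 18 below. Il18rap, a subunit of the interleukin-18 receptor, was at −4.07, −2.82, −3.42, −3.88 and −2.89 in CEC and at −2.21, −3.15, −2.83, −2.82 and −2.63 in Nissle, a difference of −0.69 (standard error 0.38). Il10ra, the ligand-binding chain of the interleukin-10 receptor, differed by −0.48 (standard error 0.33), and Il22ra1, the epithelial receptor of interleukin-22, by 0.25 (standard error 0.23).

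Chemokine receptors are given by the type of their assay. Of 26 receptor genes, 16 were higher in CEC, 10 lower and 0 passed, and 15 lay above the median of all assays. Their median difference was 0.08. Of the 26, 14 were read by assays whose primers and probe lie within 1 exon, and 12 of the 14 were higher in CEC. Among the 12 read by other assays, 4 were higher and the median was −0.24. Over the whole panel, 48 of 54 single-exon assays were higher in CEC, with a median difference of 0.28, against 0.05 for the other assays. Single-exon assays can read genomic DNA as well as cDNA, and their median level ran from −1.53 to −0.61 in the CEC samples and from −1.93 to −1.34 in the Nissle samples. Whether DNA had a part in these differences was not tested. Cx3cr1, the fractalkine receptor of resident gut macrophages, is read by such an assay and was at −0.13, −0.29, −0.71, −0.52 and −0.49 in CEC and at −1.99, −0.38, −0.66, −1.36 and −1.35 in Nissle, a difference of 0.72 (standard error 0.40). Ccr8, a receptor of regulatory and type 2 T cells, differed by 0.70 and 0.61 in 2 single-exon assays (standard errors 0.46 and 0.68).

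The list of kinin, histamine, adrenergic and nociceptor genes also holds other receptors, such as those for nucleotides, adenosine and glucocorticoids. Of its 16 genes, 14 were higher in CEC, 2 lower and 0 passed, and 13 lay above the median of all assays. The median of 0.28 was 0.20 without Nissle 1, and 0.22 over the 11 members that are not read by single-exon assays. Nr3c1, the glucocorticoid receptor, differed by 0.42 (standard error 0.32), or 0.21 without Nissle 1. P2rx7, an ATP-gated channel of macrophages and mast cells, differed by 0.47 (standard error 0.38). Trpv1, the capsaicin receptor of sensory neurons, differed by 0.73 (standard error 0.90) on 5 CEC and 3 Nissle values at Ct 28.7 to 32.7. All 3 differences were under 2 standard errors.

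**Figure D5:**
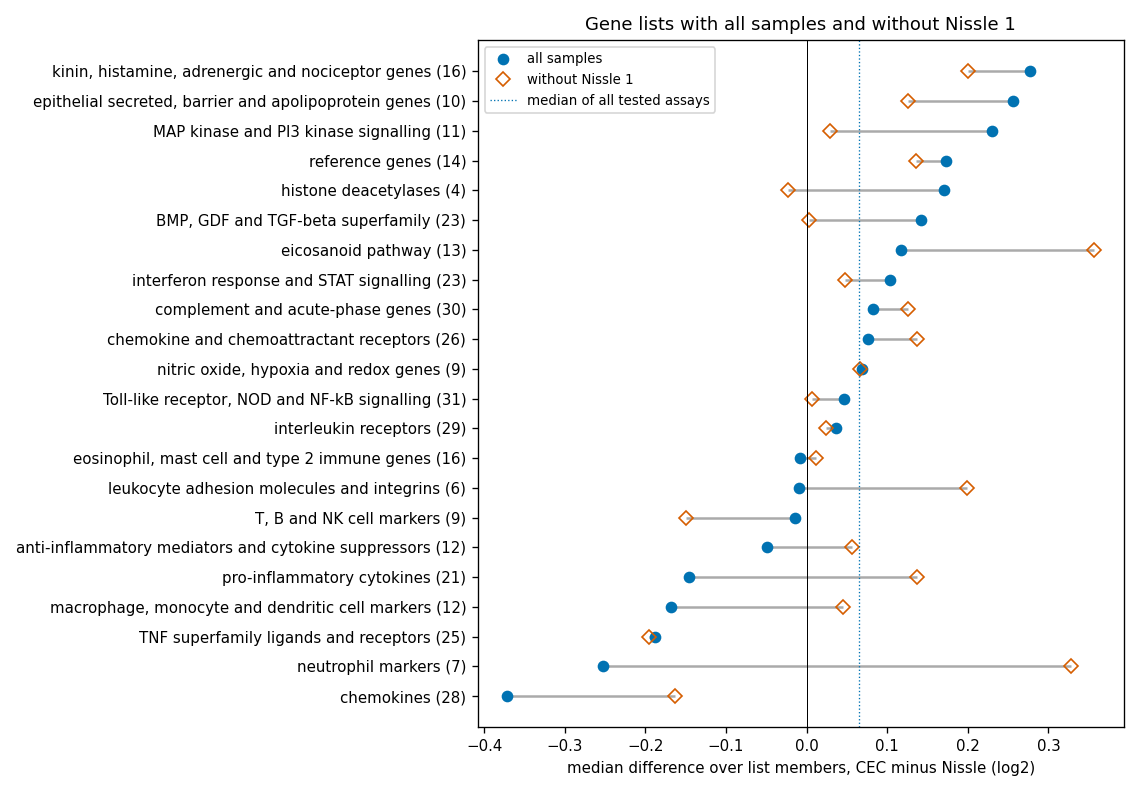
Median difference between CEC and Nissle over the members of 22 gene lists (x axis, log2, positive where CEC is higher; number of genes in brackets), with all samples (filled circles) and without Nissle 1 (open diamonds); the dotted line is the median of all tested assays, 0.06. The neutrophil list moves from −0.25 to 0.33, and 0 members of any list passed the adjusted threshold.

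Metabolic and housekeeping genes complete the panel. Of 9 genes of nitric oxide, hypoxia and redox balance, 5 were higher in CEC and 4 lower, and 5 lay above the median of all assays. Their median difference was 0.07. Hif1a, the oxygen-regulated factor, differed by −0.43 (standard error 0.34), or −0.16 without Nissle 1. Aox1, an aldehyde oxidase, was at −3.13, −4.05, −2.91, −2.34 and −3.52 in CEC and at −0.88, −2.92, −1.71, −1.99 and −2.90 in Nissle, a difference of −1.11 (standard error 0.55), or −0.81 without Nissle 1. Chst2, a sulfotransferase that builds selectin ligands, differed by 0.73 (standard error 0.39), or 0.49 without Nissle 1. Counted by 1 assay each, the 4 histone deacetylases differed by 0.01 to 0.29, and 3 lay above the median of all assays. Their median of 0.17 was −0.02 without Nissle 1. Further Hdac5 assays gave 0.59 and 0.34 (standard errors 0.38 and 0.29), or 0.27 and 0.19 without Nissle 1. Further assays gave 0.09 and 0.24 for Hdac4 and 0.12 for Hdac7. Atrn, attractin, was at 0.51 ± 0.66 in CEC, 0.26 ± 0.67 in Nissle, −0.34 ± 0.60 in DNBS and 2.71 ± 1.01 in healthy samples (SD, n = 5 each), and CEC and Nissle differed by 0.25 (standard error 0.45).

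Of 14 reference genes, 13 were higher in CEC and 1 lower, and 11 lay above the median of all assays. Their median difference was 0.17, or 0.14 without Nissle 1. Gapdh, the glycolytic enzyme often used for normalization, was at 8.53, 8.44, 8.50, 8.09 and 8.30 in CEC and at 7.38, 7.96, 8.20, 7.74 and 8.25 in Nissle, a difference of 0.47 (standard error 0.23). Actb and Ppia differed by 0.07 and 0.01. A scaling to these genes lowers every difference between CEC and Nissle accordingly, as the split of 202 to 380 above shows.

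Detection was compared for the 60 assays that gave a value in some of the 10 samples and not in others, and 0 passed (0% called; Fisher's exact test with Benjamini-Hochberg adjustment, adjusted p = 1 for the assays named here), with 1 (1.67%) at an unadjusted p under 0.05. That one was Ela2, a symbol under which neutrophil elastase has been listed, found in 1 of 5 CEC and 5 of 5 Nissle samples (Fisher's exact test, unadjusted p = 0.0476) at Ct values of 30.3 to 32.0. Il17c, an epithelial cytokine, was found in 2 CEC and 5 Nissle samples, and Tnfsf18, a costimulatory ligand, in 0 and 3. Il4, the type 2 cytokine, was found in 3 CEC and 0 Nissle samples, and Il1f10, an interleukin-1 family member, in 4 and 1. These were the 5 assays with a gap of 3 or more samples. Ela2, Il4 and Tnfsf18 were read late, at Ct values of 29.2 to 32.0, and Il1f10 at 19.6 to 24.9.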

How the data were processed

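Per the labels' protocols, cDNA from RNA of checked integrity was loaded on OpenArray plates for real-time PCR. The deposited table holds raw Ct values of 648 assays for 584 gene symbols, not normalized, per the file headers, whose first line calls it a truncated example. Whether further assays were measured, how wells were averaged and which threshold was set are not given in the sources used here. A Ct of 40 (1273 of 12960 cells, 9.82%) and 1 empty cell were taken as missing. Symbols were updated with RefSeq's gene table of GRCm38.p6, from which no coordinates were taken: 17 were renamed and 7 did not match. No 2 samples of a group held identical values.

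Relative levels were scaled to the mean Ct of 544 assays with a value in all 20 samples. Each cycle was taken as a doubling, which was not measured. Assays with at least 3 values in both groups were fitted with limma 3.58.1 in R 4.3.3 (4 group means over 20 samples, eBayes with trend, two-sided, Benjamini-Hochberg at 0.05). The fit was tested on simulated data. Detection was tested with Fisher's exact test and sample averages with exact permutation tests (scipy 1.17.1). Of the 66 assays not tested, 29 had no value in any of the 10 samples and 37 had too few.

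The text names the 24 assays with the smallest p, up to 4 members of smallest p of each list described, 12 readouts of inflammation (S100a8, S100a9, Cxcl2, Ptgs2, Nos2, Il12b, Ifng, Il17a, Il10, Tnf, Il6, Il1b), Atrn, other assays of these genes, and assays with a gap in detection of 3 or more samples. Other genes were named after their values were seen. In a list each gene counts once, by its earliest assay (smallest average Ct). The groups compared, the lists and the named readouts were chosen with earlier results of these data known. A list of 2 genes for cyclic nucleotide and calcium signalling was too short to describe (differences of 0.53 and 0.04). Alternatives covered scaling, missing, early and late values, filters, weights, moderation, single-exon assays, contradictory labels, pairing, and each sample left out. Results of some genes are not reported here.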

Additional observations from a re-analysis of the deposited data

Results flagged for a closer look

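Among 83 groups of 5 samples examined for the named assays and sample averages, 11 (13.3%) had 1 sample whose gap to its nearest neighbour was too large a share of the group's range (over 0.71). Chance gives about 1 in 20 such groups where values are normally distributed and groups are independent. These groups are not independent, since the same samples recur over related genes, so an excess over chance is not shown. In 7 of the 11 the sample was Nissle 1, the highest of its group each time.

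Its relative levels were 6.48 and 5.24 in the 2 S100a8 assays (next highest Nissle sample 0.87 and −0.16), 5.48 for S100a9 (−0.68), and −1.06 for Camp (−4.41), genes of neutrophils. They were 3.77 for 1 of the Il1b assays (next −0.72), −1.90 for 1 of the Ifng assays (−3.86) and −0.72 for Ptgs2 (−3.35). These are neutrophil genes and mediators of inflammation, and the same sample is highest in all 7.

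The other 4 were single assays of CEC samples. CEC 1 was lowest for Ccl4, at −4.02 with the next at −2.51, and for 1 of the Il12b assays, at −7.31 with the next at −4.72. CEC 1 was highest for Tnfrsf1b, at 1.82 with the next at 1.46, where the whole group was narrow. CEC 7 was lowest for Atrn, at −0.66 with the next at 0.64.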

How the results depend on the processing

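Over 38 alternatives, 0 assays were called in each, and the smallest adjusted p in any was 0.437 (limma with array weights, 58 assays at an unadjusted p under 0.05); the number at an unadjusted p under 0.05 was 40 without Nissle 3, 4 and 5, whose labels contradict each other, with a smallest adjusted p of 0.451. Both alternatives chosen after seeing the data, sections of the table centred and the fit without Nissle 1, CEC 1 and CEC 3, also called 0. The 24 assays with the smallest p kept their direction in every alternative run, though not their size. They were picked by p from the same samples, so a kept direction was likely from the start and lends them no support. Ccl4 ran from −2.29 (without Nissle 3, 4 and 5) to −0.82 (without Nissle 1, CEC 1 and CEC 3), and Camp from −2.84 to −0.48 (without Nissle 3, 4 and 5, and without values over cycle 30). Tnfsf11 shrank to −0.38 without Nissle 1, CEC 1 and CEC 3, Alox5 to 0.16 without Nissle 3, 4 and 5, and Selenos to 0.034 with raw Ct. Of the 16 further readout assays, 15 turned in at least 1 alternative, the exception being the second Il1b assay, and the cause was not tested. No detection difference was called with values over cycle 30 counted as missing.

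The titles give shared sample numbers, and for 1, 3 and 5 the deviations of same-numbered CEC and Nissle samples correlated at 0.38, −0.35 and 0.44, so the numbers were not taken to pair samples; of the 3 pairs, only number 5 had each sample correlate best with its own number. With the replicate block, 0 of 581 assays were called (smallest adjusted p = 0.957 with limma), 15 had an unadjusted p under 0.05 and 291 were lower in CEC. Among the named assays, the differences that turned under the replicate block were Cxcl2 at 0.32, S100a8 at 0.70 and 0.74, S100a9 at 0.69 and the second Ifng assay at 0.36.

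The first Ifng assay, at 0.00, was −0.17 scaled to reference genes, −0.39 with raw Ct, −0.019 without values over cycle 30, −0.71 without Nissle 3 to 5 and −0.17 with sections centred. Nos2 was −0.050 scaled to reference genes, −0.27 with raw Ct and −0.23 without Nissle 3 to 5, and Atrn −0.15 with raw Ct. Cxcl2 was 0.0021 with sections centred. Il12b was 0.24 without values over cycle 30, 0.79 and 0.13 with array weights and 1.03 and 0.61 without the 3 samples that stood apart. Ptgs2 was 0.36 with array weights and 0.69 without those 3. The third Il6 assay was 4.24 with a Ct of 40 kept as a value and 0.54 with array weights.

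With each sample left out in turn, the differences ranged from −1.33 to 0.33 (first Il1b assay), −1.38 to 0.91 and −1.93 to 0.13 (Il6), −0.21 to 0.43 (first Ifng assay), −0.50 to 0.27 and −1.11 to 0.23 (Il12b), −0.075 to 0.34 (Nos2), −0.49 to 0.28 (Ptgs2), −1.22 to 1.06 (Cxcl2), −1.37 to 0.61 and −1.99 to 0.19 (S100a8) and −1.65 to 0.49 (S100a9). The difference in mean Ct ranged from 0.206 to 0.630 and passed 0.05 in the exact permutation test only without Nissle 4 (p = 0.0397); the number of assays with a value differed by −3.85 to 0.05. Of the 22 list medians, the neutrophil list moved most, to −2.84 without Nissle 3, 4 and 5, where Nissle 1 and Nissle 2 alone are left.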
